A study of Oncorhynchus mykiss with 6 samples.

Results

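MicroRNA-458 (miR-458) was described in small RNA from the head kidney of 6 female rainbow trout (Oncorhynchus mykiss). The rows were chosen by their name, as every row with an Atlantic salmon (ssa) miRNA name and the family number of miR-458. The table held 2 such rows, ssa-miR-458-3p and ssa-miR-458-5p (shortened to miR-458-3p and miR-458-5p), among 392 annotated and 1381 miRNA rows in all. The family was singled out because miR-458-3p was already known to differ between the temperatures in these libraries, so its levels and fold change are given as a description, with no test. The heat-treated group held 3 fish kept at 24 °C and the control group 3 fish kept at 18 °C, all females aged 1 year, with 1 library per fish. The labels name no other treatment and do not say for how long the fish were heated.

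A miRNA is cut as a short duplex from a hairpin precursor, and the strands from its left and right sides are named 5p and 3p. Usually one arm is loaded into an Argonaute protein and guides it to messenger RNAs that pair with the seed, a short stretch near the 5′ end of the miRNA, while the other arm is degraded. The miR-458 family is annotated in fish and birds, and its targets are not well described. The head kidney of teleosts makes blood and immune cells, as bone marrow does in mammals, and also holds the interrenal cells that make cortisol and the chromaffin cells that make catecholamines.

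Libraries held 3753036 to 5156793 counts. Levels are given as CPM, counts set to a common library total after scaling by the trimmed mean of M values (TMM), and on this scale 3 counts, taken as the detection floor, came to 0.579 to 0.807 CPM. Of the 1381 rows, 537 had enough counts to be tested, 283 of them annotated. Marker miRNAs were set beside the labelled organ, though vessel and blood cell markers are shared by other organs and cannot settle which organ was taken. The muscle, epithelial and kidney tubule lists are given further below. The vessel miRNA miR-126 summed to 87082 to 101990 CPM in heat libraries and 81200 to 107154 CPM in control libraries. The blood-forming and immune list (miR-142, miR-150, miR-155 and miR-223) summed to 13832 to 17472 CPM in heat libraries and 9590 to 17031 CPM in control libraries. Liver miR-122 and gonad miR-202 each stayed under 100 CPM in every library.

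miR-458-3p was lower in every heat-treated fish than in any control fish. It stood at 466.5, 494.8 and 389.9 CPM in heat replicates 1, 2 and 3, and at 1125, 752.8 and 876.7 CPM in control replicates 1, 2 and 3. The highest heat library lay below the lowest control library, which held 1.52 times as much. The mean was 450.4 ± 54.2 CPM in heat-treated fish and 918.1 ± 189 CPM in control fish (SD, n = 3 each), so that the heat mean was 49.1% of the control mean. The edgeR estimate of the log2 fold change was -1.03 ± 0.21 (SE). In a bulk tissue library, fewer cells that make a miRNA and fewer copies per cell cannot be told apart.

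**Figure D1:**
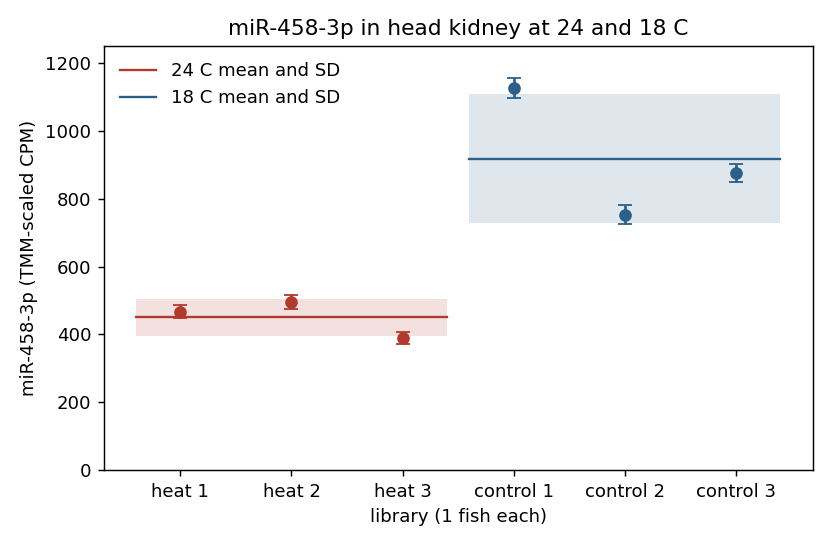
TMM-scaled CPM of miR-458-3p (vertical axis, from 0) in each library (horizontal axis), with 95% Poisson intervals as bars and the group mean ± SD as a line and band. The 3 heat libraries sit between 389.9 and 494.8 CPM, below the 3 control libraries at 752.8 to 1125 CPM.

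These levels rest on raw counts of 2418, 2103 and 1759 in heat replicates 1, 2 and 3 and of 5733, 2798 and 4192 in control replicates 1, 2 and 3, or 19003 counts together. Counting error was therefore small. The 95% Poisson interval was 371.9 to 408.6 CPM in heat replicate 3, the lowest library, and 1096 to 1154 CPM in control replicate 1, the highest (counting error only). Placed in order, heat replicates 1 and 2 were the only neighbours whose intervals overlapped. The step from the highest heat library to the lowest control library was also the largest in the order. The next largest, 1.28-fold, lay within the control group, between replicates 3 and 1.

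The level varied more between control fish than between heat-treated fish. The coefficient of variation was 12.0% in heat-treated fish and 20.6% in control fish, with a 1.27-fold span from lowest to highest in the heat group and a 1.49-fold span in the control group. With 3 fish a group these spreads are imprecise, and their difference was not tested. The SD of log2 CPM within groups was 0.24, against a median of 0.33 over the 283 annotated tested miRNAs. Over the 132 of these that averaged 100 CPM or more the median was 0.26, and 60 varied less than miR-458-3p. A choice of a miRNA known to differ between groups favours a small spread within them, so these values are a description. Of the 40 annotated miRNAs nearest in abundance (309.4 to 1373 CPM), 14 varied less within groups than miR-458-3p.

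Among annotated rows ranked by raw count in each library, miR-458-3p took places 85, 88 and 90 in heat replicates 1, 2 and 3, and places 60, 76 and 67 in control replicates 1, 2 and 3. It made up 0.0469%, 0.0466% and 0.0410% of the heat libraries and 0.113%, 0.0746% and 0.0883% of the control libraries. By mean level over all 6 fish it was the miRNA in place 80 of 283 annotated tested rows. For scale, the blood cell miRNA miR-142b-3p averaged 4947 CPM in heat-treated fish and 5451 CPM in control fish.

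The miRNAs nearest in level had smaller fold changes. The 3 next above miR-458-3p were miR-29b-3p, whose family is known to target collagen mRNAs, the blood cell miRNA miR-142b-5p, and miR-103-3p. The 3 next below were miR-21b-3p, miR-148b-3p and let-7d-5p. Their log2 fold changes lay between -0.12 ± 0.33 for miR-21b-3p and 0.42 ± 0.24 for miR-29b-3p (SE), and none passed the test (edgeR adjusted p from 0.67 to 0.996). miR-103-3p held almost the same level throughout, with 676.2, 708.9 and 757.3 CPM in heat replicates 1, 2 and 3 and 673.7, 783.8 and 703.9 CPM in control replicates 1, 2 and 3. The mean of miR-458-3p lay below the means of all 6 neighbours at 24 °C, and above all 6 at 18 °C. As the neighbours were matched on the mean over both temperatures, this largely follows from the difference by which miR-458-3p was chosen. Among the 40 nearest in abundance, 0 had a lower log2 fold change than miR-458-3p, and their median was 0.08.

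Over the whole table, the 3 heat libraries lay below the 3 control libraries for 32 of 537 tested miRNAs (5.96%), miR-458-3p among them, and above them for 37 (6.89%). edgeR's quasi-likelihood test with Benjamini-Hochberg adjustment called 0 of 537 lower at 24 °C (0%) and 1 higher (0.186%), the muscle miRNA miR-499a-5p. That call was lost without control replicate 1 (edgeR adjusted p = 0.15), control replicate 3 (0.086) or heat replicate 2 (0.077). At an unadjusted p under 0.05 it had 17 on the lower side (3.17%) and 18 on the higher side (3.35%). DESeq2 called 3 lower (0.559%), namely miR-458-3p, miR-7132b-5p and the predicted novel_242, and 2 on the higher side (0.372%), which were miR-7132a-3p and miR-499a-5p. These names follow from the counts and were listed after their values were seen. As miR-458-3p was picked with this contrast known, its presence among the DESeq2 calls supports nothing.

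By size of change, 33 of the 537 tested miRNAs and 10 of the 283 annotated ones had a lower log2 fold change than miR-458-3p. All but 1 of these 10 averaged under 100 CPM. Of the 132 annotated miRNAs that averaged 100 CPM or more, 1 was lower: miR-200b-3p, of the epithelial miR-200 family, at -1.30 ± 0.68 (SE). Its 3 heat libraries held 51.7, 100.7 and 102 CPM and its 3 control libraries 289.2, 43.3 and 294.5 CPM, so its groups overlapped. The next after miR-458-3p were miR-499b-5p at -0.66 and the kidney and eye miRNA miR-204-5p at -0.62. The median of the 132 was 0.06.

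**Figure D2:**
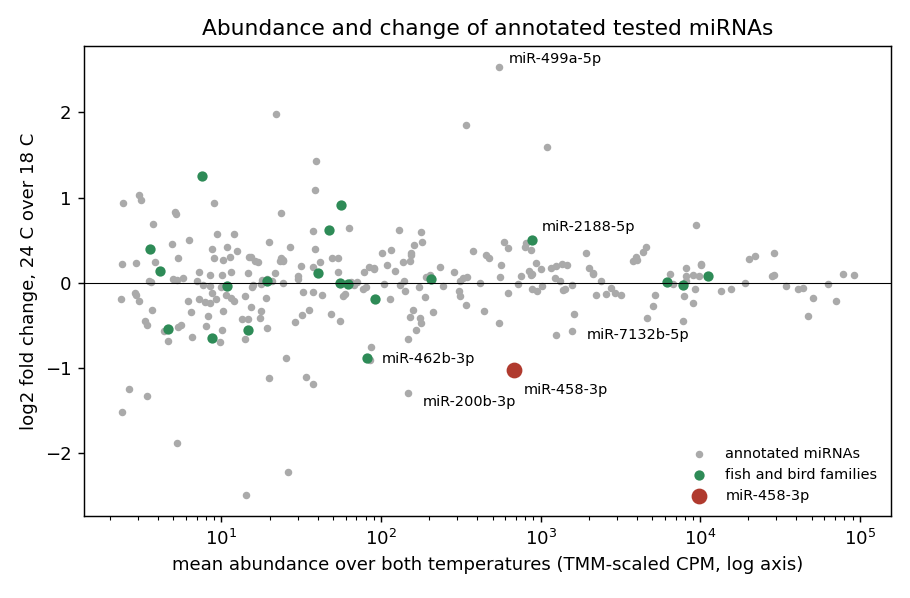
Log2 fold change, 24 °C over 18 °C (vertical axis), against mean abundance in TMM-scaled CPM (horizontal log axis) for the 283 annotated tested miRNAs, with the fish and bird families and miR-458-3p in colour. miR-458-3p sits at -1.03, below every other annotated miRNA that averaged 100 CPM or more except miR-200b-3p at -1.30.

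Of the 132 annotated miRNAs that averaged 100 CPM or more, 6 kept the groups apart on the lower side (4.55%), miR-458-3p among them. This share was no larger than the 5.96% of all 537 tested miRNAs, and 9 of the 132 were apart on the higher side. Being apart therefore does not by itself mark out the other 5, which are described here. miR-7132b-5p stood at 1328, 1188 and 1254 CPM in heat replicates 1, 2 and 3 and at 1889, 1895 and 1805 CPM in control replicates 1, 2 and 3. Its groups were tight and clearly apart, with a log2 fold change of -0.57 ± 0.14 (SE), and it did not pass edgeR's test (adjusted p = 0.39). miR-181a-2-3p and miR-181a-5-3p, minor arms of hairpins of the lymphocyte miRNA miR-181a, had log2 fold changes of -0.55 ± 0.22 and -0.48 ± 0.24. The skin and epithelial miRNA miR-203a-3p had -0.48 ± 0.24, and miR-145-3p, from a hairpin of smooth muscle, had -0.36 ± 0.19. None of these 4 passed (edgeR adjusted p = 0.63 for each).

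A ratio of 2 miRNAs in the same library does not depend on how the library is scaled. miR-458-3p was therefore set against each of the other 131 annotated miRNAs that averaged 100 CPM or more, as the log2 ratio of counts. The mean ratio was lower at 24 °C for all 131 partners, by amounts from -3.55 (miR-499a-5p) to -0.08 (miR-200b-3p), with a median of -1.07. For 113 partners (86.3%) the ratios of all 3 heat libraries lay below those of all 3 control libraries, and for 18 the groups overlapped. When each of the 132 miRNAs was treated in this way, the median share of partners apart on the lower side was 3.05%. miR-458-3p had the highest share, followed by miR-7132b-5p at 67.9% and miR-181a-2-3p at 60.3%. On the higher side, miR-499a-5p reached 98.5%. These ratios use the contrast by which miR-458-3p was chosen and are a description.

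**Figure D3:**
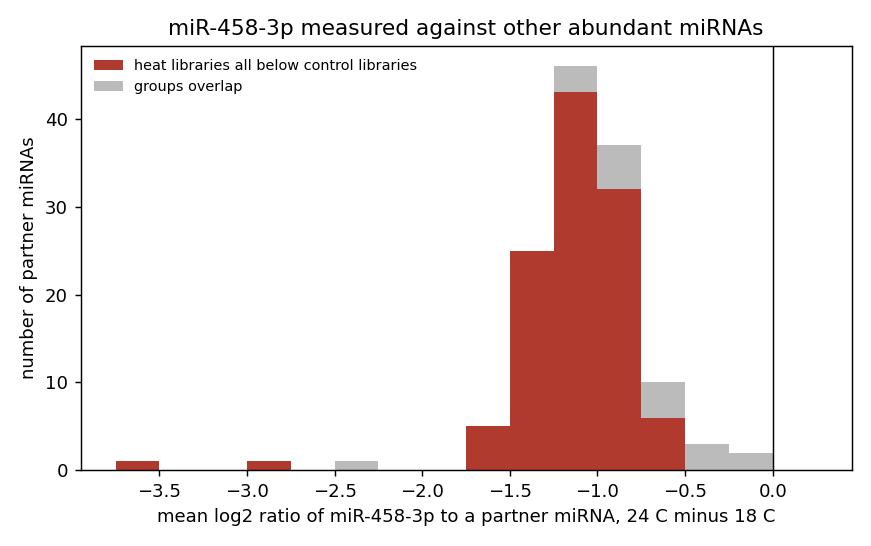
Number of partner miRNAs (vertical axis) by the difference between 24 °C and 18 °C in the mean log2 ratio of miR-458-3p to the partner (horizontal axis), for 131 annotated partners with a mean of at least 100 CPM. All 131 differences lie below 0, and the 113 partners whose groups did not overlap are drawn apart from the other 18.

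The likeness of other miRNAs to miR-458-3p was measured by the SD over the 6 libraries of the log2 ratio of their counts to those of miR-458-3p, for 224 annotated miRNAs that averaged 10 CPM or more. The median SD was 0.70. The smallest was 0.20, for miR-462b-3p, the minor arm of a hairpin of the teleost miR-462 family, which is known to respond to virus and interferon. It held 47.7, 75.1 and 47.7 CPM in heat replicates 1, 2 and 3 and 121.6, 85.6 and 108.7 CPM in control replicates 1, 2 and 3. As for miR-458-3p, the groups were apart, control replicate 1 was highest and control replicate 2 the lowest of the controls. Because miR-462b-3p was picked for likeness over these same 6 libraries, it was bound to share much of this pattern. Its log2 fold change was -0.89 ± 0.29 (SE; edgeR adjusted p = 0.63, not passed). The same arm of the related hairpin, miR-462a-3p, averaged 55.1 CPM in heat-treated fish and 55.3 CPM in control fish. Its log2 fold change was -0.004 ± 0.26 (SE), its groups overlapped, and it was named after its values were seen.

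The other 4 of the 5 steadiest ratios belonged to miR-338a-5p (SD 0.32), miR-7132b-5p (0.33), miR-30d-5p (0.35), whose family is abundant in kidney epithelium, and miR-26a-3-3p (0.36). Their log2 fold changes lay between -0.89 ± 0.32 for miR-338a-5p and -0.43 ± 0.29 for miR-26a-3-3p (SE). miR-30d-5p was the one with overlapping groups, at 6486, 8395 and 4941 CPM in heat replicates 1, 2 and 3 and 10088, 7064 and 9849 CPM in control replicates 1, 2 and 3. When likeness was measured on deviations from each group's mean, 0 of these 5 were among the 5 steadiest. Among miRNAs that averaged 100 CPM or more, 2 of the 5 were.

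**Figure D4:**
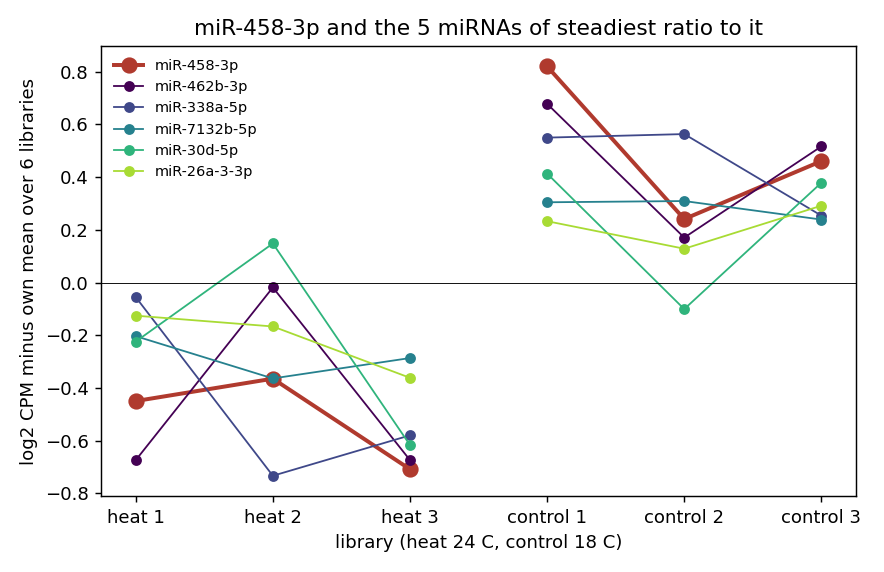
Log2 CPM minus each miRNA's own mean over the 6 libraries (vertical axis) in each library (horizontal axis) for miR-458-3p and the 5 miRNAs of steadiest ratio to it. miR-458-3p, miR-462b-3p, miR-338a-5p, miR-7132b-5p and miR-26a-3-3p keep the heat libraries below the control libraries, while miR-30d-5p overlaps. The 5 were picked for likeness over these same 6 libraries.

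miR-458-3p was then placed among families known from fish and other vertebrates outside the mammals. The list held 37 rows of 20 families, of which 21 were tested. No member passed edgeR's test in either direction, 10 had a negative and 11 a positive log2 fold change, and the median was 0.002, against 0.002 over all 537 tested miRNAs. miR-458-3p had the lowest value of the list, which largely follows from how it was chosen. In control fish 3 members were more abundant, miR-462a-5p, miR-462b-5p and miR-731-5p, the main arms of the virus and interferon pair. They had log2 fold changes of 0.07 ± 0.13, -0.03 ± 0.13 and 0.002 ± 0.15 (SE).

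The member of the list closest in level had an estimate of the other sign. miR-2188-5p stood at 725.4, 1177 and 1202 CPM in heat replicates 1, 2 and 3 and at 776.5, 843 and 574.9 CPM in control replicates 1, 2 and 3. Its groups overlapped, and its log2 fold change of 0.50 ± 0.26 (SE) did not pass (edgeR adjusted p = 0.63). It averaged 1035 CPM in heat-treated fish, against 450.4 CPM for miR-458-3p, and 731.4 CPM in control fish, against 918.1 CPM for miR-458-3p. It lay above miR-458-3p in all 3 heat libraries and in control replicate 2, and below it in control replicates 1 and 3. miR-731-3p (0.04 ± 0.20) and miR-724-5p (-0.19 ± 0.29) had small log2 fold changes.

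Of the 21 tested members, 2 had all heat libraries below all control libraries, miR-458-3p and miR-462b-3p (9.52%, against 5.96% of all tested miRNAs). As miR-458-3p was picked with this contrast known, its place in this count was fixed in advance. The lower share therefore says nothing about the list. On the higher side there were 2, miR-456-3p and miR-730a-5p (9.52%, against 6.89%). The scarce miR-730a-5p, at 10.6 ± 2.71 CPM in heat-treated fish and 4.44 ± 1.08 CPM in control fish (SD, n = 3 each), had the highest log2 fold change of the list, 1.26 ± 0.36 (SE), and did not pass (edgeR adjusted p = 0.56). It averaged under 10 CPM over both groups and was named after its values were seen. miR-456-3p stood higher in level, with 51.9, 59.1 and 59.9 CPM in heat replicates 1, 2 and 3 and 33.5, 45.2 and 32.4 CPM in control replicates 1, 2 and 3. Its log2 fold change was 0.62 ± 0.27 (SE), and it did not pass (edgeR adjusted p = 0.63).

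The miR-458 hairpin was read almost entirely from its 3p arm. miR-458-5p had 1 count, in control replicate 2, and 0 counts in each of the other libraries. The detection floor was 0.579 to 0.706 CPM in heat libraries and 0.589 and 0.627 CPM in control replicates 1 and 3. Against the 19003 counts of miR-458-3p, the 5p arm made up 0.00526% of the hairpin's counts (exact binomial 95% interval 0.000133% to 0.0293%). No change of the arm balance with temperature was detectable at this depth, and miR-458-5p was not among the tested rows. The rows carry Atlantic salmon names and no sequences were used. How well each listed arm matches the trout miRNA was therefore not checked.

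So one-sided a hairpin was uncommon among well-read ones with both arms listed. Hairpins with a single arm listed were left out, so others as one-sided may be missing from this comparison. Of 131 hairpins with both arms listed, 67 had at least 10000 counts on the more abundant arm. Their median share of the other arm was 0.491%, and 5 had a lower share than miR-458, namely miR-19a, miR-99, miR-16a, miR-15c and miR-103. The 3p arm was the more abundant one in 22 of the 67. With a single count, the place of miR-458 within this lowest group is not resolved, as miR-103 had 1 count against 19647 and miR-148b had 1 against 17022.

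**Figure D5:**
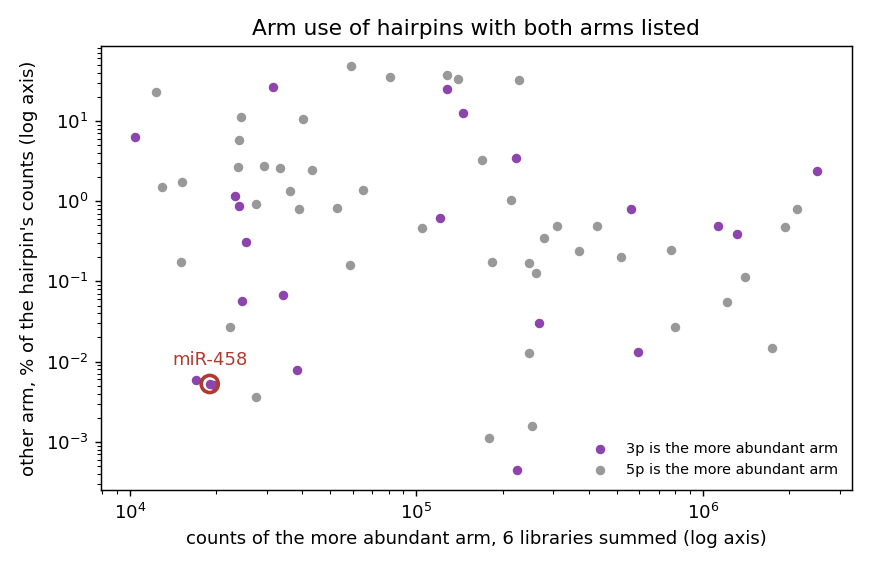
Share of a hairpin's counts on its less abundant arm in percent (vertical log axis) against counts of the more abundant arm summed over 6 libraries (horizontal log axis), for 67 hairpins with both arms listed. miR-458 lies near the lower edge, at 0.00526% with 19003 counts on its 3p arm.

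Summed levels of cell type markers mostly overlapped between the temperatures. Of all 537 tested miRNAs, 6.89% kept the groups apart on the higher side and 5.96% on the lower side. Of 9 marker lists, too few to set against that share, 1 had summed levels that kept the groups apart. This was the striated muscle list (families miR-499, miR-208, miR-206, miR-133 and miR-1; 11 rows, 6 tested, none at 0 in all libraries), at 1137 to 2326 CPM in heat libraries and 411.1 to 725.1 CPM in control libraries, with 1 member called, miR-499a-5p, whose call was lost without control replicate 1, control replicate 3 or heat replicate 2. Of the 6 tested members of the muscle list, 5 had a positive log2 fold change, and miR-499b-5p had a negative one. The groups of miR-1-3p overlapped. The red cell list (both arms of miR-144) ran from 405.4 to 3052 CPM in heat libraries and from 382.7 to 869.9 CPM in control libraries. Heat replicate 3 held the most of both lists and also the least miR-458-3p. Heat replicate 2, though, held more of both lists than heat replicate 1 and also more miR-458-3p. A link between these levels was not tested.

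The epithelial list (miR-141, miR-200, miR-203, miR-205 and miR-429; 14 rows, 7 tested) was also lower on average at 24 °C. It summed to 404.6, 435.3 and 413.4 CPM in heat replicates 1, 2 and 3 and to 838.5, 434.5 and 832.8 CPM in control replicates 1, 2 and 3. All 7 tested members had a negative log2 fold change and none passed edgeR's test. The gonad miRNA miR-202-3p, at 2.51 to 19.8 CPM in heat libraries and 12.2 to 85.3 CPM in control libraries, likewise had a lower mean (log2 fold change -2.23 ± 0.95, SE; edgeR adjusted p = 0.63).

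Against the epithelial sum, miR-458-3p counts came to 115%, 114% and 94.3% in heat replicates 1, 2 and 3 and to 134%, 173% and 105% in control replicates 1, 2 and 3, so these ratios overlapped. Against the blood-forming and immune sum they came to 3.21%, 3.58% and 2.23% in heat replicates and 6.60%, 7.85% and 5.60% in control replicates, and the groups were apart. The groups were apart for 5 of the 9 lists and overlapped for the red cell, epithelial, gonad and liver lists. For the striated muscle list this was bound to happen, as its own sum was apart on the higher side. Among the single partner miRNAs above, the share apart was 86.3%. The mean ratio was lower in heat libraries for 8 lists. It was higher for the scarce gonad list, at 9370% in heat libraries and 4200% in control libraries. For the scarce liver list the lower mean rested on control replicate 1 alone, at 21233%. The liver ratios were 965% and 1075% in control replicates 2 and 3 and 630%, 1669% and 1614% in heat replicates 1, 2 and 3. All 9 ratios carry the contrast by which miR-458-3p was chosen and are a description. The part of these cell types in the lower level of miR-458-3p was not tested.

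Leaving out 1 fish at a time kept the log2 fold change of miR-458-3p between -1.23, without control replicate 2, and -0.86, without control replicate 1. The groups stayed apart each time, the lowest control library holding at least 1.47 times the highest heat library. Apart from small changes of scaling this was bound to happen, as the groups were already apart with every library in.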

How the data were processed

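Small RNA libraries were made from TRIzol-extracted total RNA with a NEBNext small RNA kit, per the labels' protocols. The authors deposited whole-number read counts for each miRNA. Their deposited TPM values are the same counts as shares of the library total, with no length term, as checked on the file. The submitters' processing notes name Bowtie. Version, genome build and the treatment of reads that match several miRNAs are not given in the sources used, so near-identical copies may share reads. The table holds names only, and sequences and genomic positions were not used here.

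Counts were fitted with edgeR 4.0.16 under R 4.3.3. The filter was filterByExpr with a minimum count of 10 and a minimum total of 15. Scaling was by TMM on the rows that passed, with library totals from the whole table. Heat was compared with control in a robust quasi-likelihood fit, with Benjamini-Hochberg adjustment over 537 rows and a threshold of 0.05. Fold changes are 24 °C over 18 °C, and each SE was taken from the log2 fold change and its F statistic. Count ratios had 0.5 added to each count. The fit and the ratio measure were run on simulated counts with planted changes. That checks only that they work as meant under those settings, and not the results here. Every pair of libraries differed by more than sampling noise (lowest chi-square over its degrees of freedom 117). Replicates are fish, and edgeR's p-values set the difference between temperatures against the spread between fish, estimated with information shared across miRNAs.

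The members and lists were chosen with earlier results of these data known. miRNAs were named by rule: the 5 of steadiest ratio to miR-458-3p, 3 on each side in mean level, the 8 most abundant of the fish and bird list and its members of at least 10 CPM with groups apart, annotated miRNAs of at least 100 CPM with groups apart on the lower side, and 2 per marker list. The marker lists not given in the report were the kidney tubule (miR-192, miR-194, miR-204) and the endocrine and neural list (miR-7, miR-9, miR-124, miR-375). The fish and bird list held the families miR-430, miR-456 to miR-462, miR-722 to miR-740, miR-1388 and miR-2184 to miR-2198. The rule on shared seeds could not be applied. Alternatives were other scalings and filters, DESeq2 1.42.0, limma 3.58.1 on log2(TPM + 1) and log2(TPM + 10), a fit that is not robust, annotated rows only, a replicate block and each library left out. Figures were drawn with matplotlib 3.10.9.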

Additional observations from a re-analysis of the deposited data

How the results depend on the processing

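The log2 fold change of miR-458-3p ran from -1.08 to -1.003 over the other scalings, filters, tools and annotated rows only, from -1.23 to -0.86 without 1 library, and was -1.02 under the replicate block. The ratio of its lowest control to its highest heat library was 1.48 to 1.67 under the scalings and filters and 1.47 to 1.88 without 1 library. Leaving out a library could lower this ratio only through rescaling. Higher calls numbered 1, but 2 with DESeq2, 0 with the replicate block and 0 to 1 without 1 library. Lower calls numbered 0, but 3 with DESeq2 and 0 to 1 without 1 library. The cause of the difference between the tools was not tested. Same-numbered fish did not deviate together (correlations -0.06, -0.19 and -0.15), and 0 libraries lay closest to their own number. miRNAs with groups apart numbered 75 higher and 90 lower with no filter on low counts, 18 and 17 with a mean of at least 10 CPM and 17 and 14 with annotated rows only, as other rows were counted. Without 1 library they numbered 57 to 70 higher and 64 to 93 lower, as fewer libraries had to differ. Of the 5 miRNAs of steadiest ratio, 0 were kept on deviations within groups, 2 at a mean of at least 100 CPM and 2 to 4 without 1 library. The share of partners with ratios apart was 75% for partners of at least 10 CPM, 88.1% for those of at least 1000 CPM and 86.3% to 93.9% without 1 library. Without 1 library a partner already apart stays apart, so for the same partners this share could not fall. The shares of partners, the list median, the rank and the steadiest ratios without 1 library were added after seeing the data. miR-499a-5p lost its call under the replicate block and without control replicate 1, control replicate 3 or heat replicate 2 (edgeR adjusted p from 0.077 to 0.15), and miR-7132b-5p was called by DESeq2 alone. Of 645 values of 38 other named miRNAs, 32 changed sign, each for a miRNA whose log2 fold change was no larger than 0.364, and no call was reversed. With 3 fish a group, the spread between fish and not the depth limits the precision of miR-458-3p, while miR-458-5p was too rare to compare.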

Other observations

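Across the fish and bird families, both arms were listed for 15 hairpins, and the 3p arm was the more abundant one in 6 of them (miR-456, miR-458, miR-722, miR-725, miR-727 and miR-734). miR-458 had the lowest share of the other arm among the 15. miR-456 had 4 counts of 5p against 1284 of 3p, and miR-722 had 6 against 1687. In the more abundant hairpins the minor arm was readily counted. miR-462a held 1523 counts of 3p against 308359 of 5p (0.491% on the minor arm), miR-731 held 5683 against 170020 (3.23%) and miR-2188 held 1491 against 24026 (5.84%). The miR-2188 hairpin was read about as deeply as that of miR-458, which had 19003 counts on its 3p arm.

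Summed levels of the other marker lists overlapped between the temperatures. The kidney tubule list ran from 1763 to 2548 CPM in heat libraries and from 2115 to 2993 CPM in control libraries, and miR-458-3p counts came to 18.3% to 22.1% of it in heat libraries and 25.2% to 50.4% in control libraries. The endocrine and neural list, made up mostly of miR-7a-5p, ran from 30821 to 32619 CPM in heat libraries and from 28454 to 31890 CPM in control libraries. The miR-458-3p counts came to 1.20% to 1.61% of it in heat libraries and 2.36% to 3.95% in control libraries. Liver miR-122-5p ran from 24.2 to 74.1 CPM in heat libraries and from 5.30 to 81.6 CPM in control libraries.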
